A study of Homo sapiens with 5 samples.

Results

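DNA replication genes are described here as they were expressed in HLF, an established line of hepatocellular carcinoma cells. The list holds 53 genes, chosen by name for origin licensing, the replication fork and the supply of deoxynucleotides, and all 53 were present in each of the 3 deposited tables, which list 11102 genes for USP28-Ctrl and USP28-KO and 12342 genes for the reconstituted cells. It was divided into 15 licensing genes, 33 fork genes and 5 nucleotide supply genes. The series asks how loss of the deubiquitinase USP28, and its replacement by a wild-type or a monomeric form, alter gene expression. Its 5 conditions, with 1 sample listed for each, are HLF cells with a control guide (sgCtrl, USP28-Ctrl), HLF cells with a guide against USP28 (sgUsp28, USP28-KO), and sgUsp28 cells carrying the pRRL-Ctrl vector, pRRL-Usp28-WT (USP28-WT) or pRRL-Usp28-Mono (USP28-M). No further treatment is named for these samples. Per the study's methods, knockout cells went through puromycin selection, and cells given lentiviral vectors went through antibiotic selection. Knockout cells were picked as single clones, and the reconstituting lentiviral vectors went into sgUsp28 cells, so that the vector, USP28-WT and USP28-M cultures all share the knockout background. USP28-M carries a mutation in the dimerization surface.

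Before a cell can copy its DNA, the origin recognition complex (ORC), together with CDC6 and CDT1, loads the ring-shaped MCM helicase onto chromatin, a step called licensing. In S phase, kinases, CDC45 and the GINS complex switch the helicase on, and polymerases, the sliding clamp PCNA and its loader follow at the fork. Many of these genes are transcribed in waves by E2F factors at the start of S phase, and proliferating tumor cell lines are known to express them strongly. The 5 supply enzymes make the deoxynucleotides that the polymerases use, chiefly those of thymidine and the reduction of ribonucleotides.

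The quantity used is the deposited average level of each gene, in log2 CPM (reads of a gene scaled to a common library size), taken by the authors over all libraries of a fit. A first average covers the libraries of USP28-Ctrl and USP28-KO together (the Ctrl/KO libraries). A second covers those of the vector, USP28-WT and USP28-M together (the reconstitution libraries) and was identical in both tables of the reconstituted cells for all 12342 genes. These averages show how strongly replication genes were expressed in each experiment. They hold no value of a single condition, so the members could not be compared between USP28-KO and USP28-Ctrl, or between USP28-M, USP28-WT and vector, and no spread over samples can be given.

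Promoter sequences of 8 members are shown first, because most strongly expressed licensing genes hold an E2F word and most ORC genes hold none. These 8 are examples, and of the 47 members with a promoter window 22 held a word. The sequences are RefSeq promoters of GRCh38.p14, read 5′ to 3′ on the strand of the gene, from 190 bases before the start of the gene to 20 bases from the start onward. Capitals mark matches on either strand to the 4 E2F words TTTCCCGC, TTTCGCGC, TTTGCCGC and TTTGGCGC, and words that overlap were joined into 1 site. The first 4 belong to helicase genes, followed by ORC2 and ORC5 of the origin recognition complex, in which no word was found, and by the clamp gene PCNA and the thymidylate synthase gene TYMS.
MCM2, chr3:127598221-127598430, plus strand: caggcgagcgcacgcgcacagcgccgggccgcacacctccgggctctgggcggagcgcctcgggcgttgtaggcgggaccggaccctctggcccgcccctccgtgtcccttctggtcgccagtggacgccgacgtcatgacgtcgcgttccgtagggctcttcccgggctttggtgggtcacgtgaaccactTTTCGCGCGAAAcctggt
MCM3, chr6:52284723-52284932, minus strand: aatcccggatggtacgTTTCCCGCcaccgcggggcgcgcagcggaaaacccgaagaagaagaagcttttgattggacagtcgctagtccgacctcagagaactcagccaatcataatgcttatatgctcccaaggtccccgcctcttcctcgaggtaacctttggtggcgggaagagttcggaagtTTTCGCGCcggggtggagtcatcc
MCM6, chr2:135876424-135876633, minus strand: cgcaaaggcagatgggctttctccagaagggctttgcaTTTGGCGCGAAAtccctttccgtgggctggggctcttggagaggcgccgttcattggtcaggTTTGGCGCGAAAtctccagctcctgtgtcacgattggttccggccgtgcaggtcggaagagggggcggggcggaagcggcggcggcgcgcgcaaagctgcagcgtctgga
MCM7, chr7:100101378-100101587, minus strand: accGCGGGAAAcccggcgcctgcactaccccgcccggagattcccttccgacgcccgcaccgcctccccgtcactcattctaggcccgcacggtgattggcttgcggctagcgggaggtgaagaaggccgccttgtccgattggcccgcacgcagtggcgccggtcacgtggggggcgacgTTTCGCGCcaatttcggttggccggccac
ORC2, chr2:200963641-200963850, minus strand: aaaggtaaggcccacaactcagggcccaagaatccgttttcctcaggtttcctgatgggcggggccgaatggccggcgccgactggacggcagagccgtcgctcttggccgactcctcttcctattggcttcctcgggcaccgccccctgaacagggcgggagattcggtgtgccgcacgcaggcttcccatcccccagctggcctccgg
ORC5, chr7:104207994-104208203, minus strand: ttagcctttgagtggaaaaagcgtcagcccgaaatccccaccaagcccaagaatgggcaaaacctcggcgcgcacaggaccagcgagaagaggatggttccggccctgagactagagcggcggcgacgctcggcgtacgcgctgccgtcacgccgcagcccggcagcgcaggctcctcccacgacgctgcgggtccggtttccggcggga
PCNA, chr20:5126603-5126812, minus strand: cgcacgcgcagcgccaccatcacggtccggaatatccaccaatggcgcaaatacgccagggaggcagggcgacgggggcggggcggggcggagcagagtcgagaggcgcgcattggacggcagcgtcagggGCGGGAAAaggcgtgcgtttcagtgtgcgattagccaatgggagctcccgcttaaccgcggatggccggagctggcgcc
TYMS, chr18:657463-657672, plus strand: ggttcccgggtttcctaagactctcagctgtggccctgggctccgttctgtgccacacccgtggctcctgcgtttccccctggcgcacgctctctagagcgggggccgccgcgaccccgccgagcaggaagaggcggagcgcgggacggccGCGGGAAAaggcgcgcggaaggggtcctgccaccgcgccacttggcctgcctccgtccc
The MCM6 stretch held 2 sites, each made of overlapping words. MCM3 and MCM7 also held 2 sites each, while MCM2, PCNA and TYMS held 1.

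Licensing genes split by complex. All 6 helicase genes were among the strongly expressed genes of both experiments, with average log2 CPM from 7.11 (MCM6) to 8.38 (MCM3) in the Ctrl/KO libraries and from 6.93 (MCM6) to 8.10 (MCM3) in the reconstitution libraries. Their median stood at percentile 93.7 and 92.9, where a percentile is the percent of the genes of the table with a lower average. The 6 genes of the origin recognition complex, which marks the sites where helicases are loaded, lay around the median of all genes. Their averages ran from 4.59 (ORC5) to 6.18 (ORC3) in the Ctrl/KO libraries and from 3.91 (ORC5) to 5.62 (ORC2) in the reconstitution libraries, against medians over all genes of 5.33 and 4.90. Helicase and recognition genes did not overlap in either experiment.

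Counts grow with the length of a transcript, so genes were compared per kilobase of the longest protein-coding transcript in GENCODE release 29. On this scale MCM3, the highest of the helicase subunits, stood at 103.9 CPM per kilobase in the Ctrl/KO libraries and at 85.3 in the reconstitution libraries, and MCM6, the lowest, at 36.9 and 32.6. The helicase subunits, which form a ring with 1 copy of each, thus spanned 2.81-fold and 2.61-fold in mRNA level. With the median length of the protein-coding transcripts in place of the longest they spanned 4.37-fold and 4.16-fold, and MCM5 was the highest at 161 and 136 CPM per kilobase. ORC genes were lower and more spread, from 3.90 CPM per kilobase (ORC4) to 28.8 (ORC3) in the Ctrl/KO libraries. In the reconstitution libraries they ran from 2.47 (ORC4) to 18.5 (ORC6). The median helicase gene was 5.55-fold above the median ORC gene in the Ctrl/KO libraries and 5.49-fold above it in the reconstitution libraries. With median transcript lengths these ratios were 4.45 and 7.48, but single genes then overlapped, since ORC2, with many short transcripts, rose to 91.8 and 89.9 CPM per kilobase while MCM6 stayed at 36.9 and 32.6. ORC1, the large subunit that comes and goes with the cell cycle, had 9.58 and 11.6 CPM per kilobase.

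The loading factors lay between both complexes on the average log2 CPM scale. CDC6, the ATPase that joins ORC at the origin, had average log2 CPM of 7.04 in the Ctrl/KO libraries and 6.29 in the reconstitution libraries. CDT1, which brings the helicase to ORC, had 6.53 and 6.49. GMNN, whose product geminin binds CDT1 and blocks a second round of licensing, had 6.47 and 5.77. Per kilobase, CDT1 mRNA was 0.405 times GMNN mRNA in the Ctrl/KO libraries and 0.641 times in the reconstitution libraries, so the inhibitor's mRNA was the more abundant in each.

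Fork genes ran from 4.53 (POLE2) to 8.26 (PCNA) on the average log2 CPM scale in the Ctrl/KO libraries. In the reconstitution libraries they ran from 3.57 (POLE2) to 7.73 (POLD2). Of the 33, 15 reached a percentile of 75 or higher in the Ctrl/KO libraries and 13 in the reconstitution libraries, while 5 and 7 lay below percentile 50. PCNA, the sliding clamp, was the fork gene with the highest level per length of the longest transcript, at 226 and 135 CPM per kilobase. Per median transcript length FEN1 (231) exceeded PCNA (227) in the Ctrl/KO libraries, and POLD2 (249), FEN1 (173) and RFC1 (161) exceeded PCNA (135) in the reconstitution libraries. The 5 subunits of its loader were 22.3 (RFC3) to 53.4 (RFC2) CPM per kilobase in the Ctrl/KO libraries and 11.3 (RFC3) to 43.1 (RFC2) in the reconstitution libraries. With median transcript lengths RFC1 was the highest of them, at 171 and 161 CPM per kilobase. PCNA thus exceeded RFC1, the large loader subunit, 8.89-fold and 5.64-fold, but with median transcript lengths the ratio was 1.33 and 0.841.

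Among the factors that turn the loaded helicase into an active one, GINS1 was highest, with average log2 CPM of 7.10 and 6.78, and GINS3 lowest, with 4.88 and 4.76. These are subunits of the same complex, and per kilobase GINS1 exceeded GINS3 3.24-fold in the Ctrl/KO libraries and 2.84-fold in the reconstitution libraries. CDC45, which completes the active helicase, had 6.34 and 5.76 on the average log2 CPM scale, and MCM10, needed for its activation, 6.53 and 5.73. CDC7, the kinase that fires origins, was at 5.75 and 4.99 and its activating subunit DBF4 at 5.11 and 4.38, and per kilobase the kinase exceeded its activator 1.84-fold and 1.80-fold. Of the fork scaffold genes, TIMELESS had average log2 CPM of 7.08 and 7.07 and its partner TIPIN 5.08 and 4.20. Per kilobase the ratio of TIMELESS to TIPIN was 1.365 in the Ctrl/KO libraries and 2.496 in the reconstitution libraries. With median transcript lengths this ratio was 0.715 and 1.31, so TIPIN was then the higher in the Ctrl/KO libraries. WDHD1, which ties the helicase to polymerase alpha, had average log2 CPM of 5.44 and 4.15.

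Polymerase subunits did not share a level. In polymerase epsilon, the leading strand enzyme, the catalytic POLE had average log2 CPM of 7.45 and 7.14 and the accessory POLE2 4.53 and 3.57. POLE transcripts are long (7840 bases), and per kilobase the ratio of POLE to POLE2 was 1.73 and 2.71. In polymerase delta, the lagging strand enzyme, the accessory POLD2 was highest at 76.5 and 98.7 CPM per kilobase, above the catalytic POLD1 at 41.2 and 38.4 and POLD3 at 15.7 and 13.3. Polymerase alpha-primase, which lays down primers, ran from 13.3 (POLA1) to 29.1 (POLA2) CPM per kilobase in the Ctrl/KO libraries and from 8.25 (POLA1) to 26.2 (POLA2) in the reconstitution libraries. With median transcript lengths the ratio of POLA2 to POLA1 was 9.31 and 13.5 instead of 2.19 and 3.18. The primase genes PRIM1 and PRIM2 had 20.5 and 19.0 CPM per kilobase in the Ctrl/KO libraries and 11.99 and 13.7 in the reconstitution libraries, and so changed places between the experiments. With median transcript lengths PRIM2 was the higher in both, at a ratio of PRIM1 to PRIM2 of 0.571 and 0.464.

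The single-strand binding protein RPA, the enzymes of Okazaki fragments and the chaperone CAF-1 completed the fork genes. RPA1, the large subunit of RPA, had average log2 CPM of 7.64 and 7.49, and per kilobase RPA2 was at 1.09 times RPA1 in the Ctrl/KO libraries and at 0.935 times in the reconstitution libraries (0.850 and 0.727 with median transcript lengths), while RPA3 was at 0.510 and 0.463 times RPA1 (0.830 and 0.754 with median transcript lengths). FEN1, the flap nuclease, had 78.2 and 58.4 CPM per kilobase and LIG1, the ligase that seals the nick, 26.4 and 24.6. The CAF-1 genes CHAF1A and CHAF1B, which place histones on new DNA, had 25.02 and 21.6 CPM per kilobase in the Ctrl/KO libraries and 26.4 and 18.1 in the reconstitution libraries. With median transcript lengths CHAF1A exceeded CHAF1B 5.38-fold and 6.76-fold, and FEN1 exceeded LIG1 6.72-fold and 5.38-fold instead of 2.96-fold and 2.37-fold.

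**Figure D1:**
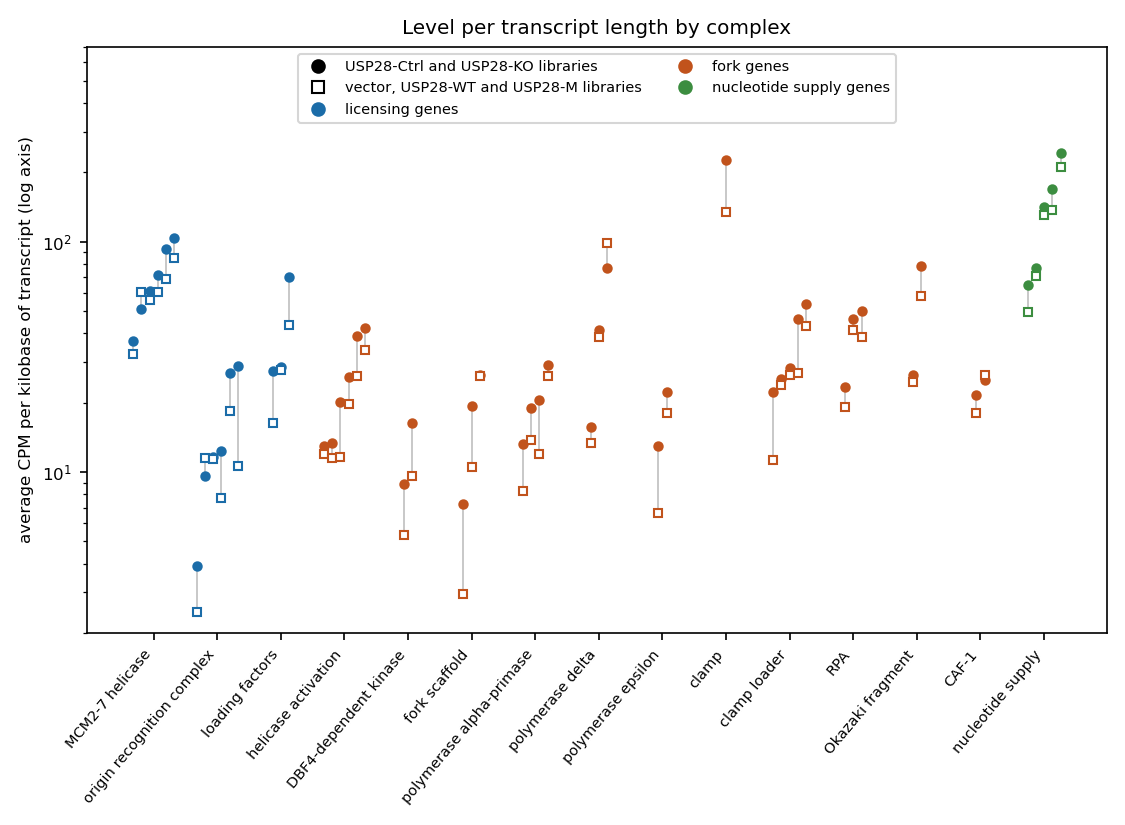
Average CPM per kilobase of the longest protein-coding transcript (y axis, log scale) for each member, grouped by complex (x axis). Filled circles are the Ctrl/KO libraries and open squares the reconstitution libraries, joined by a line for each gene. RRM2 (244 and 210) and PCNA (226 and 135) are among the highest values, and ORC4 (3.90 and 2.47) is the lowest member.

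Nucleotide supply genes had the highest median of the 3 classes, close to that of the helicase genes alone (7.99 and 7.76). Their median average log2 CPM was 7.89 in the Ctrl/KO libraries and 7.78 in the reconstitution libraries, at percentile 93.2 and 93.0, and all 5 reached a percentile of 75 or higher in each. RRM2, the small subunit of ribonucleotide reductase and its regulated part in S phase, was the highest of all 53 members at 9.81 and 9.59. It exceeded RRM1, the large subunit (7.88 and 7.77), 3.18-fold and 2.97-fold per kilobase. TYMS, which makes thymidylate, had 8.14 and 7.84 on the average log2 CPM scale, and TK1, the salvage kinase for thymidine, 7.89 and 7.78. DUT, which removes dUTP, was the lowest of the group at 7.12 and 6.73. Per kilobase the median supply gene was 5.64-fold above the median fork gene in the Ctrl/KO libraries and 6.64-fold above it in the reconstitution libraries.

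The order of neighbouring members is only partly resolved by the reads. Weakly expressed genes take evenly spaced average CPM values, and this spacing corresponds to about 7690000 reads over all Ctrl/KO libraries together and about 30460000 reads over all reconstitution libraries, which puts each member on at least 178 and 363 reads. Exact Poisson intervals from these reads were at most 0.43 and 0.30 wide (95%, log2 scale). They cover counting error only. Of the 52 neighbouring pairs in the order of CPM per kilobase, 43 in the Ctrl/KO libraries and 36 in the reconstitution libraries had overlapping intervals. Among the highest members of the Ctrl/KO libraries, RRM2, PCNA, TYMS, TK1 and MCM3 followed each other in this order per longest transcript. With median transcript lengths TK1 was the highest member, at 347 CPM per kilobase in the Ctrl/KO libraries and 321 in the reconstitution libraries. RRM2 then stood at 261 and 225.

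All 5 mesenchymal markers were listed, from vimentin (VIM, average log2 CPM 11.71 and 11.69) down to FN1 (6.32 and 5.20) and COL1A1 (4.47 and 2.84). Of 5 epithelial markers, the keratins KRT8 (11.18 and 12.02) and KRT18 (10.65 and 11.21) were listed and high, and EPCAM, CDH1 and KRT19 were not listed. As for hepatocyte markers, 7 of 9 hepatocyte markers, ALB, AFP and HNF4A included, were not listed for the reconstitution libraries and 8 of 9 not for the Ctrl/KO libraries. FGB (fibrinogen beta) was listed at 6.003 and 3.204. None of 4 markers of blood and vessel cells was listed. USP28 mRNA averaged 5.15 in the Ctrl/KO libraries and 9.79 in the reconstitution libraries, which include the cultures with added USP28, and these averages do not check single labels.

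Replication genes were somewhat lower in the reconstitution than in the Ctrl/KO libraries. The tables were normalized separately, so each gene's difference (reconstitution minus Ctrl/KO, log2 scale) was centred on the median of the 10976 genes in all tables, which was -0.12. The Ctrl/KO libraries include sgCtrl cells, while the reconstitution libraries hold sgUsp28 cells only, some with added USP28. The cultures and the viral vectors with their antibiotic selection also differ, as do the estimated read totals. These cannot be told apart, so the differences between the experiments are given without a test. Of the 53 members, 39 (73.6%) lay below the median gene and 14 above it, with a median of -0.19, and 16 (30.2%) lay below -0.5, against 19.6% of all genes. No member lay above 0.5, as 14% of all genes did. Centring raised every gene by the same amount, and 10 members that lay above the median gene were lower in the reconstitution libraries without it.

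By class, the median centred difference was -0.16 for licensing genes, -0.19 for fork genes and -0.091 for nucleotide supply genes. ORC3 had the lowest value, -1.31, from average log2 CPM of 6.18 to 4.74, and WDHD1 followed with -1.16. Next came RFC3 (-0.86), POLE2 (-0.84) and TIPIN (-0.76). POLD2 (0.49), ORC1 (0.39) and MCM2 (0.37) had the highest values. Centring shifts every gene by the same amount and so cannot change this order, but the order changed when trends were removed. With the trend of GC content, length and expression removed, CDC6 (-0.79) was lowest, followed by ORC3 (-0.75), MCM10 (-0.72) and PCNA (-0.71), while WDHD1 stood at -0.54, RFC3 at -0.32 and TIPIN at -0.42. ORC2 (0.37) was then highest, POLD2 stood at 0.23 and MCM2 at 0.0076. Counting error, from the estimated read totals, was small beside the lowest and highest values, with a standard error of at most 0.13. It exceeded the smallest differences, such as those of MCM2 with the trend removed and of RRM1 and TK1. Their standard errors were 0.042, 0.038 and 0.038. The 5 supply genes stayed within -0.26 (DUT) and 0.01 (RRM1 and TK1).

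**Figure D2:**
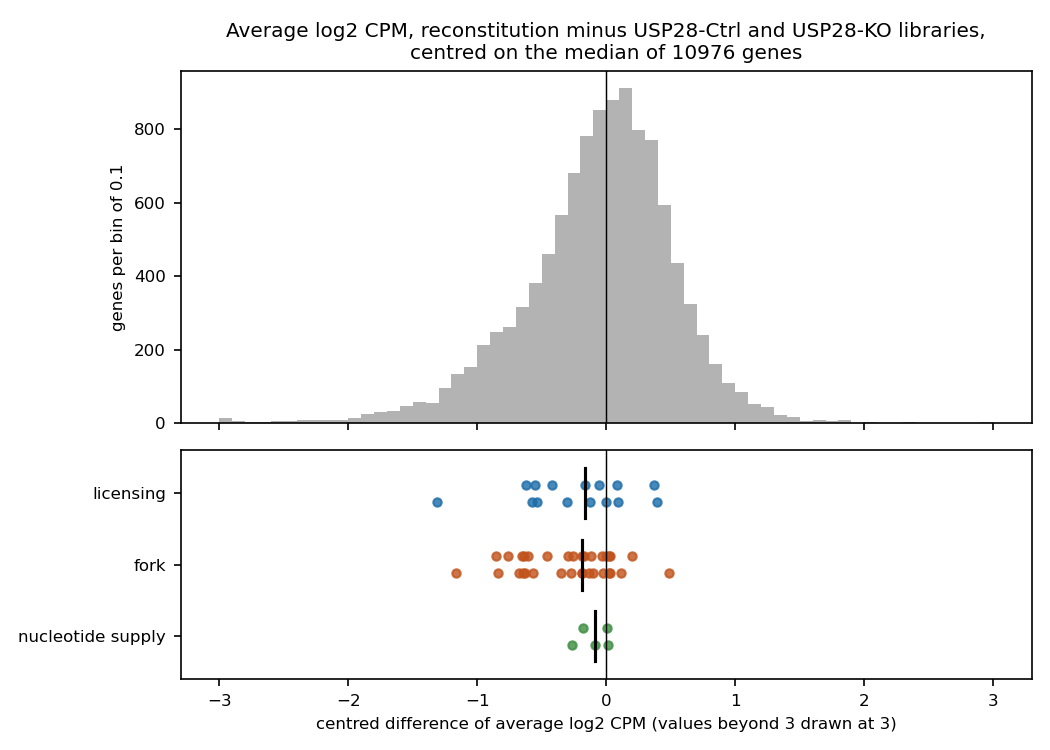
Centred difference of average log2 CPM, reconstitution minus Ctrl/KO libraries (x axis), for all 10976 genes as a histogram (top; y axis, genes per bin) and for the members by class (bottom, points; thick lines are class medians). The class medians are -0.16, -0.19 and -0.091, and no member lies above 0.5.

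Differences between the experiments ran with the GC content of the transcript, among members as among all genes. The 16 members below -0.5 had a GC content of 37.7% to 45.5%. The 13 members with a GC content under 42% had a median centred difference of -0.61, and the 17 members over 50% one of 0.011. Over all genes these medians were -0.47 and 0.20. Spearman's rho across genes between GC content and difference was 0.604 over 53 members and 0.480 over 10742 genes, which share libraries and are not independent. With the trend of GC content, length and expression removed, the class medians were -0.32, -0.32 and -0.26, and 46 of 53 members lay below the median gene. The part of GC content in the differences was not tested otherwise.

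Of 36 further replication genes outside the list, 35 were listed for the Ctrl/KO libraries and 36 for the reconstitution libraries, with median average log2 CPM of 6.30 and 5.72 beside 6.50 and 6.19 for the members. DNMT1, the maintenance methyltransferase, was high at 8.38 and 8.58 (named after its values were seen), and MCM9 was listed only for the reconstitution libraries, at 1.84. Of the 35 with a centred difference 15 (42.9%) lay below -0.5, against 30.2% of the members and 19.6% of all genes, CLSPN, the checkpoint adaptor of the fork, among them at -1.03. Of 27 regulators of the start of S phase, 26 were listed for each experiment, and CCND2 for neither. Their medians of 5.65 and 5.39 lay closer to all genes. E2F1 (7.41 and 7.11) and E2F4 (6.69 and 6.31) were the highest of the 8 E2F genes. The S phase cyclin CCNA2 had 7.28 and 7.11, and CCNE2 differed most downward between experiments (4.56 and 2.78). Of the cell cycle inhibitors, CDKN1A (4.13 and 5.39) and CDKN2A (5.66 and 6.36) had centred differences of 1.38 and 0.82, and CDKN1B and CDKN2C of -0.16 and -0.0067. TFDP2, a partner of E2F factors, had 0.87. Of the 26 listed regulators, 16 lay below the median gene and 10 above it.

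Promoter windows of 300 bases, from 250 before to 50 from the start onward, were given for 47 of the 53 members, 12 of them with more than 1 start. An E2F word was found in 22 of these 47 genes (46.8%), against 6.97% of 9756 genes listed in any table and 3.99% of 27305 genes with a window. The share was 8 of 13 licensing genes, 12 of 29 fork genes and 2 of 5 nucleotide supply genes. All 4 helicase genes with a window had a word, as shown above for MCM2, MCM3, MCM6 and MCM7, and so did CDC6, CDT1 and GMNN, whereas ORC3 was the only one of 6 ORC genes with a word. Of the 27 sites, 19 began within the 100 bases before the start and 3 after it.

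Licensing genes with an E2F word had higher averages, a split that largely follows the complexes, since all 5 without a word are ORC genes and 7 of the 8 with one are helicase or loading genes. In the Ctrl/KO libraries the 8 genes with a word ran from 6.18 to 8.38 on the average log2 CPM scale (median 7.07) and the 5 without from 4.59 to 5.65 (median 4.92), with no overlap. In the reconstitution libraries the ranges were 4.74 to 8.10 and 3.91 to 5.62, and ORC3 at 4.74 made them overlap. Fork genes showed no such order, with medians of 6.15 with and 6.50 without a word in the Ctrl/KO libraries. In the reconstitution libraries these medians were 5.61 and 6.19. The 2 supply genes with a word had medians of 7.63 and 7.28 in the Ctrl/KO and reconstitution libraries. The 3 without had 7.89 and 7.78. Among the supply genes RRM2, the highest member, had no E2F word in its windows. A match is a description of letters and not a bound site.

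**Figure D3:**
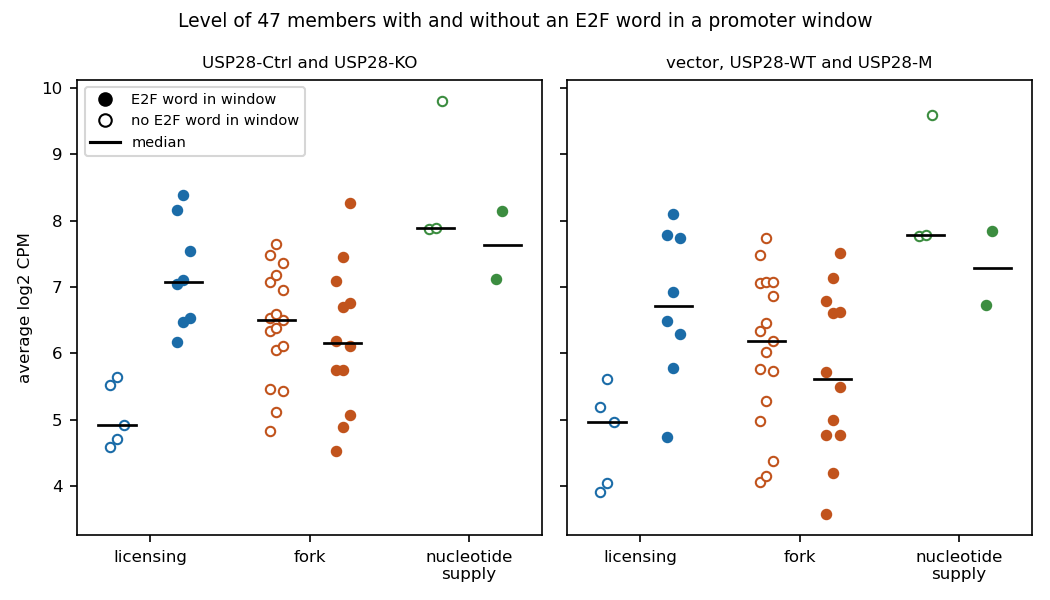
Average log2 CPM (y axis) of the 47 members with a promoter window, by class (x axis), in the Ctrl/KO libraries (left) and the reconstitution libraries (right). Filled points have an E2F word in a window, open points have none, and lines are medians. Licensing genes with a word start at 6.18 on the left, above the highest without at 5.65, and on the right ORC3 (4.74) falls among those without.

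Other words were nearer to their share among listed genes. The CCAAT box, bound by NF-Y, was in 27 of 47 members (57.4%; 44.0% of listed genes), the E-box CACGTG, bound by MYC and related factors, in 8 (17.0%; 12.8%) and the CHR word TTTGAA in 3 (6.38%; 13.5%), each searched on both strands. The member windows had a median GC content of 65.0% against 58.7% over all windows, and words rich in G and C are met more often in such windows. Head-to-head neighbours were also counted, as protein-coding genes on opposite strands whose 5′ ends lay at most 1000 bases apart. In GENCODE release 29, 13 of 53 members (24.5%) had such a neighbour, against 10.1% of 11331 listed protein-coding genes. Pairs were ORC3 with RARS2, ORC1 with PRPF38A, WDHD1 with SOCS4, PCNA with CDS2, POLE with PXMP2 and TK1 with AFMID, among others.

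Exons of 20 members share at least 100 bases with those of another gene, for 8 of them a gene that is itself listed. The library kit as named in the labels does not state that strand was kept. Reads of the opposite-strand pairs TYMS and ENOSF1 (967 shared bases), MCM7 and AP4M1 (392) or FEN1 and TMEM258 (166) may therefore not have been told apart. The levels of these members are uncertain to that extent. POLA2 (2012 shared bases) and RRM2 (1077) each overlap a gene on the same strand, which strand would not separate. Neither of those overlapping genes is listed.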

How the data were processed

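Total RNA of HLF cells was sequenced on an Illumina instrument after library preparation with a NEBNext kit. Per the labels and the study's methods, the authors aligned reads with STAR (version 2.5.4, after bcl2fastq 2.20, build hg19) and compared conditions with edgeR (version 3.26.8). The counting tool, the filter on low genes and the number of libraries per condition are not given in the sources used here. The deposited tables hold, per gene, an average log2 CPM over the libraries of a fit, and the results of the authors' own comparisons, namely a log2 fold change, a p-value, its adjusted value and in 2 tables an F statistic. Only the average log2 CPM as deposited by the authors was used. The comparison columns were not used, so the tests planned for USP28-KO, USP28-WT and USP28-M were not run. In the USP28-KO table the header stands 1 column to the left of its values, and the columns were read by position. The members, classes and gene lists were chosen with earlier results of these data known, and all alternatives were chosen after seeing the data.

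Percentiles are within a table. Genes were listed down to an average log2 CPM of 1.70 for the Ctrl/KO libraries and 0.40 for the reconstitution libraries. A percentile therefore does not mean the same in both experiments. Length and GC content came from the longest protein-coding transcript of GENCODE release 29, matched by gene ID for 97.8% and 96.7% of the genes of the tables and for 53 of 53 members. Depth was estimated from the steps of the 1100 lowest averages, of which 96.8% (Ctrl/KO) and 68.5% (reconstitution) lay within 0.1 reads of a whole number, so the second estimate is less certain. The step search was tried on simulated data, with totals close to these estimates and steps sought within preset bounds. It therefore could not show whether a multiple of the true step had been taken. Depth per library is unknown. Of columns with values of single samples, 0 were left out for lack of a match. Scripts ran in Python 3.11.15 with scipy 1.17.1 for intervals, matplotlib 3.10.9 for plots, and pandas 2.3.3 on numpy 2.4.6. By the rule for named genes each member present in all tables may be named, and its part that ranks members by adjusted p could not be applied. Promoter windows are RefSeq, GRCh38.p14. No coordinates of the hg19 build were used.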

Additional observations from a re-analysis of the deposited data

How the results depend on the processing

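Alternatives were chosen after seeing the data. Alternatives listed earlier (threshold, size of change, filter, genes tested, adjustment, centring, trend and standard error) concerned calls between USP28 conditions and were not run, since no call was made. No paired analysis was possible because only averages over all libraries of a fit were used, and for the same reason no replicate could be left out. Of 42 alternative values, 15 moved by less than the spread used and 27 moved by more, and 0 reversed. For percentiles this spread was a binomial interval over all genes of the table. It does not measure the uncertainty of a median over the members, so these counts only sort the values by size of movement. Percentiles are given for licensing genes and then fork genes. The main values were 76.75 and 73.33 in the Ctrl/KO libraries and 76.88 and 67.25 in the reconstitution libraries. Alternative percentiles follow in the same order of classes. In the Ctrl/KO libraries they were 75.13 and 71.47 among genes at 3 log2 CPM or more, 75.73 and 72.14 among protein-coding genes, 75.03 and 71.58 per transcript length, and 82.89 and 68.37 per median transcript length. In the reconstitution libraries they were 74 and 63.19 among genes in all 3 tables, 71.34 and 59.41 with the same minimum, 75.05 and 64.7 among protein-coding genes, and 77.67 and 69.8 per transcript length, with 78.85 for licensing genes per median transcript length. Nucleotide supply genes stood at 95.54 and 94.05 per longest and median transcript length in the Ctrl/KO libraries. In the reconstitution libraries they stood at 92.12 (genes in all 3 tables), 91.31 (minimum of 3), 92.48 (protein-coding genes) and 95.64 (per transcript length). The median difference between experiments became -0.2849 (licensing) and -0.2129 (nucleotide supply) without centring, and -0.3241 and -0.2604 with the trend removed. Depth limits the order of neighbouring members, and depth per library is unknown.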
